A study of Danio rerio with 14 samples.

Results

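Rad21 peaks of zebrafish embryos were listed more densely at 10 than at 4.5 hours post fertilisation (hpf) in most 1 Mb windows, with shorter gaps between them. All 18075 Rad21 peaks listed at 10 hpf and all 7144 listed at 4.5 hpf on chromosomes 1 to 25 were compared, 25219 of the 41309 peaks that the series lists on these chromosomes. The peaks were chosen by stage and antibody alone, not by any measured value. The earlier stage lies shortly after the embryo's own genome has been switched on, and the later one at the end of gastrulation.

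Rad21 is a subunit of cohesin, the ring-shaped complex that holds sister chromatids together and draws chromatin into loops. Cohesin is loaded onto DNA and travels along it, and it is known in vertebrates to be halted at sites of CTCF, a zinc finger protein that binds DNA. A place where cohesin stays often enough across the cells of a sample appears as a peak in chromatin immunoprecipitation followed by sequencing (ChIP-seq). The density and spacing of such peaks therefore describe where along a chromosome cohesin is most often found.

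The series holds 14 samples in 7 groups of 2. The groups used for the comparison were 10 hpf Rad21 and 4.5 hpf Rad21, each set against the input (chromatin without immunoprecipitation) of its own stage. All were pooled whole embryos of strain AB/PS, with no treatment or mutation named in the labels, 1000 embryos in each of 2 independent collections per group, and immunoprecipitation used a custom antibody against Rad21. Chromatin was sheared in 10 cycles and read as 50 bp single ends at both stages, per the labels' protocols. Peaks of CTCF at 10 hpf, 14079 on the same chromosomes, and those of Rad21 at 2.5 hpf, which were called with another program, are given beside some values. In whole embryos, more cells with cohesin at a site and more cohesin per cell cannot be told apart.

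A single list of peaks per stage is at hand, with no value per library. The spread between the 2 collections of a stage is therefore unknown, no difference between stages could be tested, and there is no p-value. Exact 95% intervals cover counting error only and take peaks as independent, which neighbouring peaks may not be. Coordinates are on Zv9, and genes near the peaks were not assigned.

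Both lists came from a similar number of tags by the same thresholds, yet differed 2.53-fold in length. Per the file headers, the caller HOMER worked with 13260105 tags at 10 hpf and 14255160 at 4.5 hpf, and 11 tags were required at both stages. It started from 35851 putative peaks at 10 hpf and 18663 at 4.5 hpf, a ratio of 1.92. The filter against input then removed 45.8% of them at 10 hpf and 59.1% at 4.5 hpf, so 50.4% at 10 hpf and 38.3% at 4.5 hpf were kept after all filters. The share of tags in peaks was 3.38% at 10 hpf and 1.03% at 4.5 hpf, and a peak held on average 24.8 tags at 10 hpf and 20.5 at 4.5 hpf. The peak size in the headers was 189 bp at 10 hpf and 168 bp at 4.5 hpf, so tags were counted over unlike widths. Efficiency of immunoprecipitation, the share removed by input and the peak size thus moved with stage. Their part in the length of the lists was not tested.

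Counted in windows of 1 Mb, the increase was spread over nearly the whole genome. A window held on average 13.2 Rad21 peaks at 10 hpf and 5.22 at 4.5 hpf, with medians of 12 (quartiles 8 and 18) at 10 hpf and 5 (3 and 7) at 4.5 hpf. The fullest window held 41 peaks at 10 hpf and the fullest 19 at 4.5 hpf, while 13 of 1369 windows were empty at 10 hpf and 47 at 4.5 hpf. The later stage had more peaks in 1271 windows, or 92.8% (91.4 to 94.2), as many in 48 and fewer in 50. Only 7 windows held peaks at 4.5 hpf and none at 10 hpf, against 41 of the opposite kind. A longer list by itself gives more peaks in most windows.

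**Figure D1:**
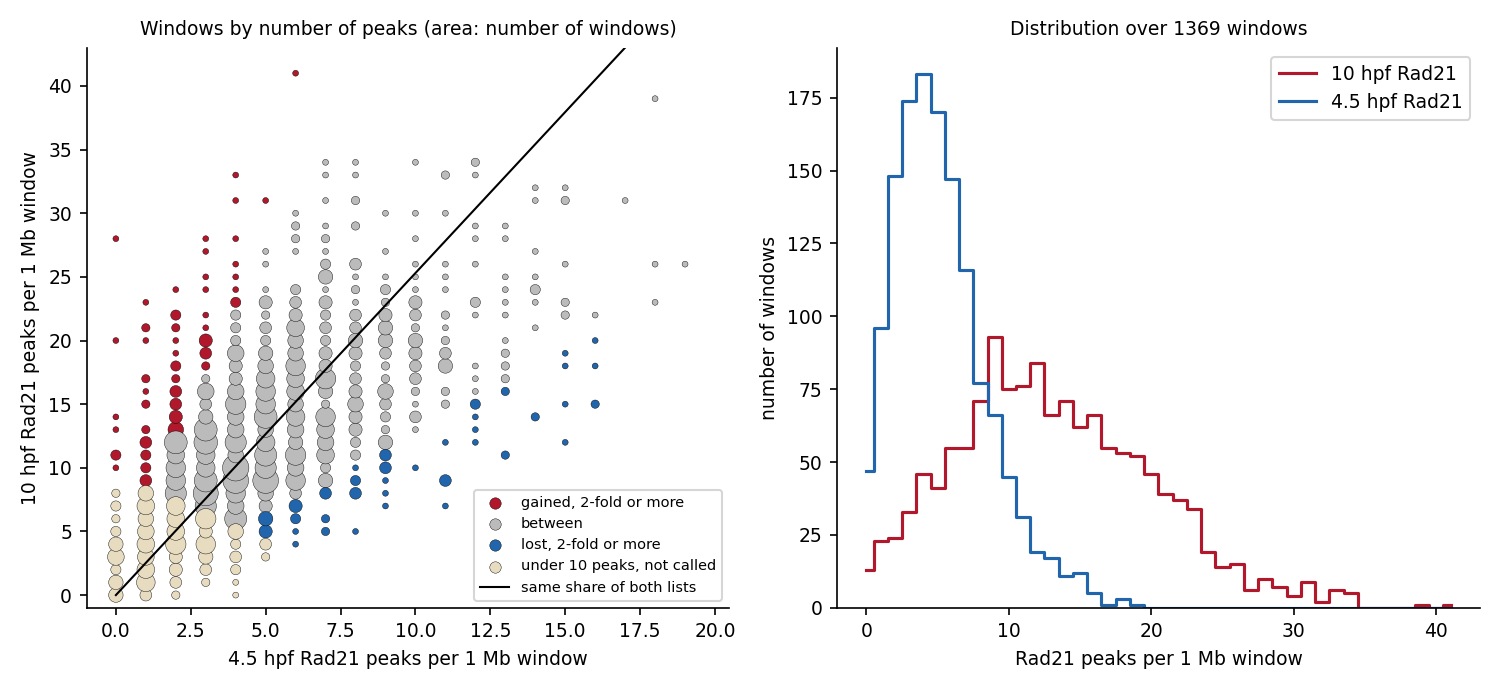
Left, each circle is a combination of Rad21 peak counts in 1 Mb windows at 10 hpf (vertical) and 4.5 hpf (horizontal), its area the number of windows and the line an equal share of both lists. Right, number of windows by peak count, centred on a median of 12 peaks at 10 hpf and 5 at 4.5 hpf. Gained windows (94) and lost windows (76) lie on either side of the line.

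Windows rich at one stage tended to be rich at the other. Across the 1369 windows of 1 Mb the Spearman correlation of the Rad21 counts was 0.60, and across 13572 windows of 100 kb it was 0.38. A window has the same sequence at both stages, so these values describe the lists and are no test. The densest decile of windows, 136 in number, held 19.9% of the peaks at 10 hpf and 23.2% at 4.5 hpf. Of these windows 49 (36.0%) were in the densest decile at both stages. The variance of the counts was 3.658 times their mean at 10 hpf and 2.104 times at 4.5 hpf, against 1.781 for CTCF, so Rad21 peaks were spread less evenly over megabases than CTCF peaks were. The ratio grows with the mean count where windows differ in density, and the mean was higher at 10 hpf.

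At the finer scale of 100 kb, the later stage had more peaks in 50.7% of windows, as many in 39.7% and fewer in 9.57%. Of these windows 4608, or 34.0% of all, held peaks at 10 hpf only. A further 831, or 6.12%, held peaks at 4.5 hpf only, 4199 held peaks of both stages and 3934 of neither. These counts depend on how much of the 10 hpf list is used. With its first 7144 peaks, as many as the 4.5 hpf list holds, 1959 windows had peaks at 10 hpf only. Windows with peaks at 4.5 hpf only then numbered 2079. Lists of equal length give similar numbers largely by construction, so this near balance says little about the stages. That cut also changes which peaks are compared, since 10 hpf peaks that overlap a 4.5 hpf peak lie early in the list, at a median place of 3202. Windows with peaks at 10 hpf only held 8229 of the later peaks, and those with peaks at 4.5 hpf only held 958 of the earlier ones. CTCF peaks averaged 1.11 per window where only 10 hpf had Rad21 and 0.95 where only 4.5 hpf did. They averaged 1.30 where both stages had Rad21, and 0.69 where neither had.

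Since the whole list is longer at 10 hpf, a local change was read from a window's share of each list. A window of 1 Mb with at least 10 peaks over both stages was called gained where its share of the 10 hpf list was at least 2 times its share of the 4.5 hpf list, and lost where it was at most 0.5 times, with 0.5 peak added to each count. Of 1138 windows with enough peaks, 94 (8.26%) were gained and 76 (6.68%) lost. With the lists at equal length 72 windows were gained and 49 lost, and with the first 50% of each list 61 were gained and 47 lost. Both cuts leave fewer windows with at least 10 peaks, so these counts are not shares of the 1138. At 3-fold in place of 2-fold, 36 were gained and 11 lost. Counts in single windows were small, and the exact interval of the 10 hpf share excluded the overall 71.7% in 22 of the gained, 17 of the lost and 1 of the 968 other windows. Without adjustment for the number of windows, these intervals are descriptions. If all 1138 windows had the same true share, some exact 95% intervals would still exclude it through counting error. The windows with such intervals were few among the 1138. Whether they outnumber those that counting error alone would give was not tested. A gained or lost call in a single window therefore does not by itself show a local change.

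Gained windows together held 1667 peaks at 10 hpf and 189 at 4.5 hpf, with a median per window of 17 at 10 hpf and 2 at 4.5 hpf. Lost windows held 722 peaks at 10 hpf and 694 at 4.5 hpf, with a median of 9 at 10 hpf and 8.5 at 4.5 hpf. These are the counts from which the calls were made. Since the whole list was 2.53-fold longer at 10 hpf, the cut for a lost window by itself picks windows with similar or lower counts at 10 hpf. The number of CTCF peaks differed little, with means of 10.1 per gained window, 10.2 per lost window and 11.1 per window between. The calls were scattered: 23 chromosomes had a gained window and 22 a lost one, with 7 pairs of gained windows side by side and 8 pairs of lost ones.

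With 0.5 peak added to each count, the 5 gained windows with the highest fold had no Rad21 peak at 4.5 hpf, an order that rests on the added value. On chromosome 20, 22000001 to 23000000, there were 28 peaks at 10 hpf and 0 at 4.5 hpf, a share of the list at least 3.69-fold higher when the 4.5 hpf count is set to a floor of 3 peaks. On chromosome 18, 11000001 to 12000000, there were 20 at 10 hpf and 0 at 4.5 hpf, at least 2.63-fold higher. The next in order were on chromosome 9 from 55 Mb (14 peaks at 10 hpf and 0 at 4.5 hpf), chromosome 8 from 50 Mb (13 at 10 hpf and 0 at 4.5 hpf) and chromosome 15 from 9 Mb (11 at 10 hpf and 0 at 4.5 hpf). In all, 8 gained windows had no peak at 4.5 hpf. At the floor, the windows on chromosomes 20 and 18 passed 2-fold and the other 6 did not. Most gained windows, 75 of 94, had 1 to 3 peaks at 4.5 hpf. With each count under 3 at 4.5 hpf raised to that floor, 40 of the 66 gained windows concerned fell short of 2-fold, and 54 of the 94 gained windows passed.

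Of the 5 windows with the largest increase in number, all but that on chromosome 20 already held peaks at 4.5 hpf. The window with the most was on chromosome 13, 30000001 to 31000000, with 41 peaks at 10 hpf and 6 at 4.5 hpf. Chromosome 7 from 36 Mb followed with 33 peaks at 10 hpf and 4 at 4.5 hpf, then the chromosome 20 window above. Chromosome 12 from 36 Mb had 34 at 10 hpf and 7 at 4.5 hpf, and chromosome 5 from 26 Mb had 31 at 10 hpf and 4 at 4.5 hpf. These windows held between 7 and 17 CTCF peaks.

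Decreases in number were small in every window. The largest were 4 peaks, on chromosome 11 from 12 Mb, with 0 peaks at 10 hpf and 4 at 4.5 hpf, and on chromosome 23 from 4 Mb, with 7 at 10 hpf and 11 at 4.5 hpf. Decreases of 3 peaks included chromosome 10 from 2 Mb, with 5 at 10 hpf and 8 at 4.5 hpf, chromosome 19 from 16 Mb, with 1 at 10 hpf and 4 at 4.5 hpf, and chromosome 3 from 16 Mb, with 12 at 10 hpf and 15 at 4.5 hpf. The lost windows with the lowest fold were that on chromosome 10, at 0.26 times, and that on chromosome 23, also at 0.26 times. After them came chromosome 12 from 4 Mb at 0.27 times, with 4 peaks at 10 hpf and 6 at 4.5 hpf. Chromosome 18 from 47 Mb and chromosome 20 from 9 Mb each stood at 0.29 times, with 5 peaks at 10 hpf and 7 at 4.5 hpf.

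Each chromosome had more Rad21 peaks at 10 hpf than at 4.5 hpf. Peaks per Mb lay between 9.28 (chromosome 4) and 16.0 (chromosome 23) at 10 hpf and between 4.11 (chromosome 4) and 6.29 (chromosome 19) at 4.5 hpf. Chromosome 4, whose long arm is known in zebrafish for its repeats, was thus the poorest at both stages. The number of peaks at 10 hpf per peak at 4.5 hpf was highest on chromosome 18, with 666 peaks at 10 hpf and 220 at 4.5 hpf, a ratio of 3.03 (2.60 to 3.54). It was lowest on chromosome 3, with 822 at 10 hpf and 378 at 4.5 hpf, a ratio of 2.17 (1.92 to 2.46). These were the only 2 of 25 chromosomes whose interval excluded the overall ratio.

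**Figure D2:**
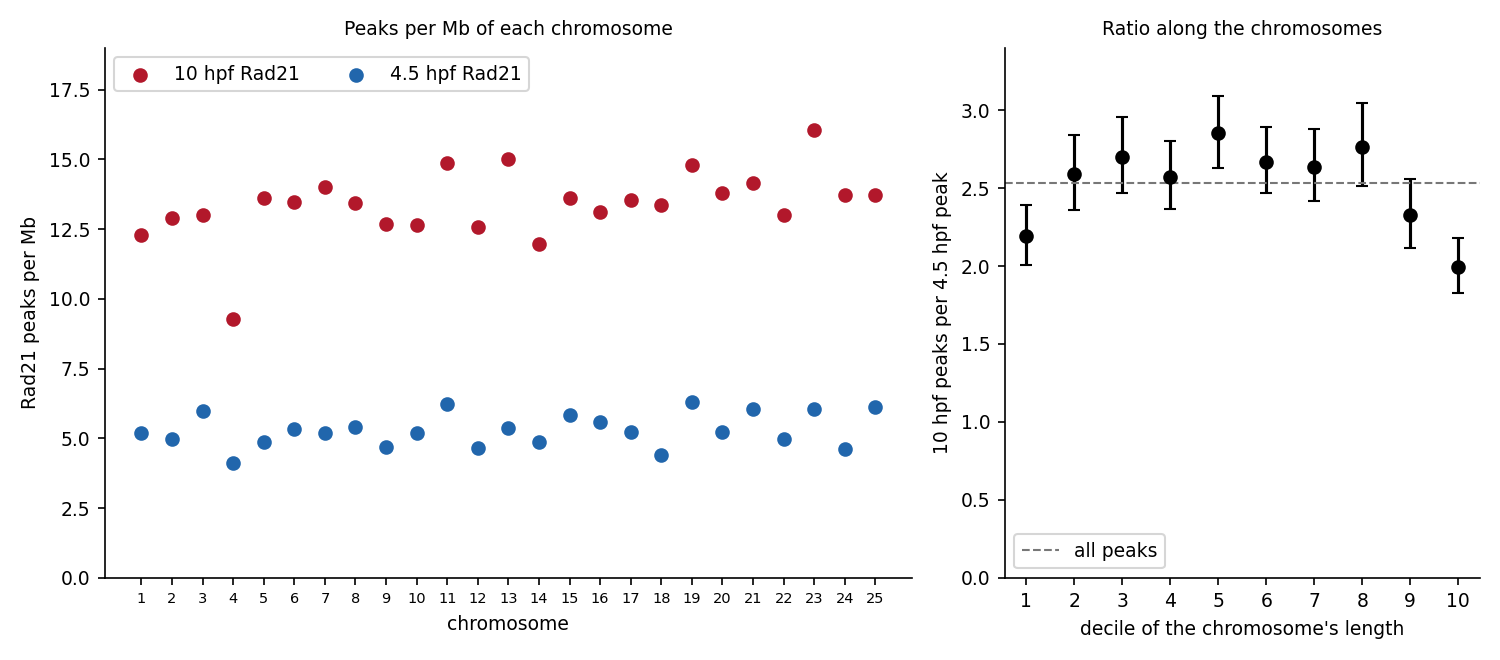
Left, Rad21 peaks per Mb of each chromosome at 10 hpf and at 4.5 hpf, with chromosome 4 lowest at both stages. Right, 10 hpf peaks per 4.5 hpf peak in each decile of the chromosomes' length, summed over 25 chromosomes, with exact 95% intervals for counting error; the ratio was 2.19 in the first decile, 1.99 in the last and 2.85 in the fifth.

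Along the chromosomes, the increase was weaker toward both ends. Divided into deciles by length, the chromosomes held 1646 peaks at 10 hpf and 751 at 4.5 hpf in the first decile, a ratio of 2.19, and 1479 at 10 hpf and 742 at 4.5 hpf in the last, a ratio of 1.99. Deciles 5 and 6 together held 4628 peaks at 10 hpf and 1678 at 4.5 hpf, a ratio of 2.76, while deciles 1 and 10, the outer ones, together had a ratio of 2.09. The exact interval of the share of peaks that were 10 hpf peaks was 66.3 to 69.0% in the outer deciles and 72.3 to 74.5% in the middle ones. The outer ratio was below that of the whole chromosome on 24 of 25 chromosomes and below that of the middle deciles on 21. This contrast was chosen after the data were seen.

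Lost windows gathered at the same places. They were called from the same peak counts as the ratios above, so this is no separate result. Of the 76 lost windows 34, or 44.7% (33.3 to 56.6), had their middle in an outer decile, against 12 of 94 gained windows, or 12.8% (6.77 to 21.2), and 18.3% (15.9 to 20.9) of the windows between. The outer deciles held 17.3% of the Rad21 peaks at 10 hpf, 20.9% of those at 4.5 hpf and 22.2% of the CTCF peaks. The middle deciles held 25.6% of the Rad21 peaks at 10 hpf, 23.5% at 4.5 hpf and 19.7% of the CTCF peaks.

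Seen from the later stage, the nearest earlier peak was usually far away. The median distance between centres was 41.2 kb (39.9 to 42.4) from a 10 hpf peak to the nearest 4.5 hpf peak, and 3.86 kb (3.29 to 4.65) from a 4.5 hpf peak to the nearest 10 hpf peak. At 10 hpf 4841 peaks, or 26.8% (26.1 to 27.4), had no 4.5 hpf peak within 100 kb. At 4.5 hpf 362 peaks, or 5.07% (4.57 to 5.60), had no 10 hpf peak within 100 kb. A longer list leaves shorter distances to it. With the 10 hpf list limited to its first 7144 peaks in deposited order, the medians were 21.2 kb (19.7 to 23.0) from 10 to 4.5 hpf and 21.4 kb (19.8 to 23.0) from 4.5 to 10 hpf.

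**Figure D3:**
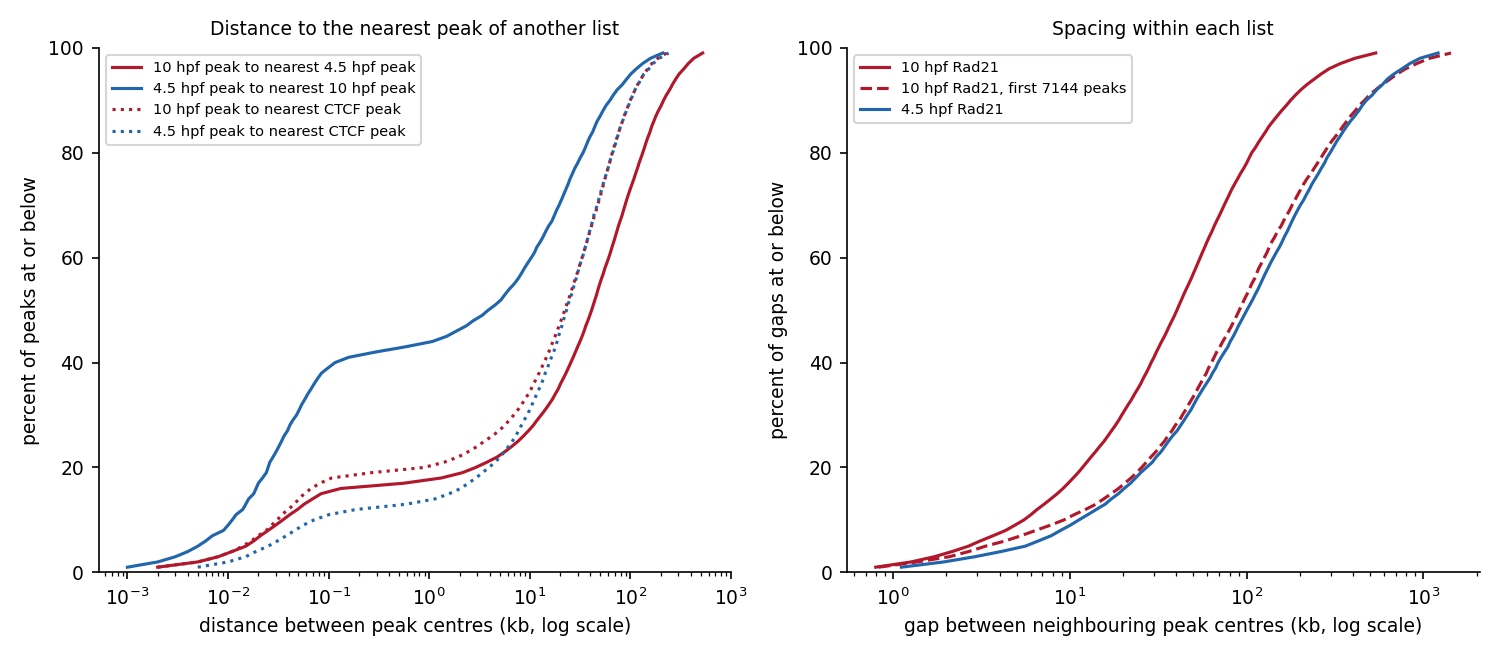
Left, cumulative percent of Rad21 peaks by distance in kb (log scale) to the nearest peak of the other stage (solid) and to the nearest 10 hpf CTCF peak (dotted). Right, cumulative percent of gaps between neighbouring peaks by length in kb (log scale). The curve from 4.5 to 10 hpf climbs little on this log scale between 0.1 and 1 kb, where 39.1% and 43.9% of peaks are reached.

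Many peaks sat on a peak of the other stage, and the others were spread over a wide range of distances from one. Overlapping peaks, 2946 at each stage, made up 16.3% of the 10 hpf list and 41.2% of the 4.5 hpf list. The number is the same for both, so the shares differ with the length of the lists, and at equal length overlap was 31.7% of either. The offset between their centres had a median of 26 bp and quartiles of 12 and 50 bp, within the 189 bp that a peak spans at 10 hpf and the 169 bp at 4.5 hpf. In the narrow range from overlap to 1 kb lay 224 of the 10 hpf peaks (1.24%) and 188 of the 4.5 hpf peaks (2.63%). Of the 10 hpf peaks, 9.72% lay over 1 to 10 kb from a 4.5 hpf peak and 46.0% over 10 to 100 kb. Of the 4.5 hpf peaks, 15.7% lay over 1 to 10 kb from a 10 hpf peak and 35.3% over 10 to 100 kb. Among peaks without overlap the median distance was 56.2 kb (54.8 to 57.9) for the 15129 of 10 hpf and 20.1 kb (19.3 to 21.1) for the 4198 of 4.5 hpf.

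Place in the list went with distance. The lists carry no usable score, so peaks were ordered as deposited, an order whose basis the headers do not state. For the 10 hpf list the median to a 4.5 hpf peak was 0.057 kb in the first decile, 22.0 kb in the second and 65.2 kb (59.2 to 70.7) in the last. For the 4.5 hpf list the median to a 10 hpf peak was 0.021 kb in the first decile, 0.061 kb in the third, 7.84 kb in the fifth and 20.3 kb (17.3 to 22.7) in the last. The median thus passed 1 kb between the first and the second decile at 10 hpf and between the fourth and the fifth at 4.5 hpf. Peaks low in the 10 hpf list also stood farther from their own neighbours, at a median of 26.2 kb in the last decile and 16.1 kb in the first. At 4.5 hpf these medians were 61.5 kb in the last decile and 35.4 kb in the first.

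Overlap with CTCF peaks varied with distance in the earlier list more than in the later one. At 10 hpf 25.2% (23.6 to 26.8) of the overlapping peaks lay at a CTCF peak. Of the 10 hpf peaks farther off, 12.9% did within 1 kb, 18.0% over 1 to 10 kb, 17.9% over 10 to 100 kb and 16.9% (15.8 to 17.9) beyond 100 kb. At 4.5 hpf 25.02% (23.5 to 26.6) of the overlapping peaks lay at a CTCF peak. The shares farther off were 4.79% within 1 kb, 2.49% over 1 to 10 kb, 2.89% over 10 to 100 kb and 1.66% (0.61 to 3.57) beyond 100 kb. CTCF was mapped at 10 hpf only, the stage of the Rad21 list that defines these distances for the 4.5 hpf peaks.

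Peaks far from the other stage lay in few places at the extremes. The 5 peaks of 10 hpf farthest from a 4.5 hpf peak all lay on chromosome 9, between 54844937 and 55104812, at 1093 to 1216 kb. All fell in a single gap of the 4.5 hpf list, of 2476 kb. The gained window from 55 Mb and the gained stretch of 25 peaks on that chromosome lie in the same gap, so these are not separate cases. Of the 5 peaks, those between 54922840 and 54937865 had their nearest neighbour in their own list 6.06 to 8.78 kb away. For the others it stood 32.3 and 60.5 kb away, against a median of 19.7 kb for 10 hpf peaks without overlap. The 5 peaks of 4.5 hpf farthest from a 10 hpf peak all lay on chromosome 4, at 30479645 or beyond, with the farthest at 31261626 to 31261794, 1593 kb from any. Chromosome 4 held 27 of the 362 earlier peaks beyond 100 kb, or 7.46%, while it held 3.57% of the 4.5 hpf list. It held 2.71% of the 4841 later peaks beyond 100 kb and 3.19% of the 10 hpf list.

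Some peaks high in the later list had no earlier peak nearby. The first in deposited order without a 4.5 hpf peak within 100 kb was on chromosome 18, 19886435 to 19886623, at place 59, 118.1 kb from the nearest. On chromosome 20, 55787184 to 55787372 (place 73) and 55790206 to 55790394 (place 180) lay 658 and 661 kb from one. This pair stood 3.02 kb apart, close to the chromosome's end at 55.8 Mb, so its members are not separate cases. All 3 of these peaks on chromosomes 18 and 20 overlapped a CTCF peak. The others were on chromosome 7, 22326609 to 22326797 (place 140), and chromosome 13, 10638395 to 10638583 (place 154), neither at a CTCF peak. Of the whole 10 hpf list 18.8% overlapped a CTCF peak, and these 5 peaks are too few to set against it.

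High in the earlier list, the peaks without a 10 hpf peak within 100 kb included the very first. That peak lay on chromosome 4, 56016345 to 56016513, 116.3 kb from the nearest later one. The next, at place 111, was also on chromosome 4, 42795987 to 42796155. A pair on chromosome 9, 31389526 to 31389694 (place 325) and 31404363 to 31404531 (place 715), lay 122.4 and 107.5 kb from a 10 hpf peak. The remaining one, on chromosome 3, 2173962 to 2174130 (place 467), was the only one of these 5 at a CTCF peak. Of the whole 4.5 hpf list 11.9% overlapped a CTCF peak.

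Spacing shortened with the number of peaks. The median gap between the centres of neighbouring peaks was 40.3 kb (39.4 to 41.2) at 10 hpf and 100.3 kb (96.2 to 105.0) at 4.5 hpf. Gaps over 1 Mb numbered 23 at 10 hpf, 32.3 Mb in all, and 129 at 4.5 hpf, 172.5 Mb in all. Gaps within 10 kb made up 17.3% (16.8 to 17.9) at 10 hpf and 8.98% (8.32 to 9.66) at 4.5 hpf. With the 10 hpf list at the length of the 4.5 hpf list its median gap was 90.9 kb (87.6 to 94.4). The intervals of the medians still did not meet. The cut keeps peaks from the head of the 10 hpf list, which stood closer to their neighbours. In the full 10 hpf list the median to the nearest neighbour was 16.1 kb in the first decile and 26.2 kb in the last. The part of this choice of peaks in the shorter median was not tested. The mean gaps at equal length were 189.3 kb at 10 hpf and 189.8 kb at 4.5 hpf. Equal numbers of peaks on the same chromosomes give nearly equal means by construction, so these means say nothing about spacing.

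By their coefficient of variation, on which the longest gaps weigh most, gaps were more uneven at 10 hpf. The median gap was 0.54 times the mean at 10 hpf and 0.53 times at 4.5 hpf, so by this measure the full lists differed little. It was 0.48 times with the 10 hpf list at equal length. The coefficient of variation of the gaps was 1.499 at 10 hpf, 1.573 with that list at equal length, and 1.310 at 4.5 hpf, against 1.258 for CTCF. At equal length the first 7144 peaks of 10 hpf had 170 gaps over 1 Mb, against 129 at 4.5 hpf, and 10.5% (9.85 to 11.3) of gaps within 10 kb, against 8.98%. Peaks no more than 10 kb from the next formed 2522 chains of 2 or more at 10 hpf, with 31.2% of the list, and 569 at 4.5 hpf, with 16.9%. Chains of 4 or more numbered 92 at 10 hpf and 10 at 4.5 hpf. At equal length most of this difference was gone, with 657 chains of 2 or more at 10 hpf, 19.7% of the peaks in them, and 10 chains of 4 or more, as many as at 4.5 hpf.

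The longest chain held 10 peaks of 10 hpf, on chromosome 2 from 31066692 to 31112634. One of its peaks overlapped a 4.5 hpf peak and 2 a CTCF peak, and they ranged from place 912 to 17402 in the list. Chains of 6 followed on chromosome 14, 33752116 to 33767523, and chromosome 16, 44556442 to 44582337, each again with 1 peak that overlapped a 4.5 hpf peak. At 4.5 hpf the longest chains held 5 peaks. Among them were chromosome 1, 60327961 to 60347786, with 3 peaks that overlapped a 10 hpf peak, and chromosome 2, 6681997 to 6704306, with 2.

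Some stretches without Rad21 at one stage held it at the other. The longest gap at 10 hpf ran over 3664 kb of chromosome 4, between 29668304 and 33332722, and held 4 peaks of 4.5 hpf and 24 of 2.5 hpf. The next, of 2049 kb on chromosome 3 between 2007626 and 4056744, held 2 peaks of 4.5 hpf. At 4.5 hpf the longest gap ran over 2498 kb of chromosome 3, between 2570761 and 5068661, and held 1 peak of 10 hpf. The gap behind it, of 2476 kb on chromosome 9 between 53721460 and 56197934, held 25 peaks of 10 hpf. The third, of 2467 kb on chromosome 7 between 4342500 and 6809144, held 5. The long gaps on chromosome 3 thus overlapped between stages, while that on chromosome 9 was occupied at 10 hpf.

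Later peaks without an earlier counterpart were denser in the short gaps of the 4.5 hpf list than in the long ones. Per Mb of gap there were 17.6 such peaks in gaps up to 10 kb, 14.8 in those of 10 to 50 kb, 16.0 in those of 50 to 100 kb and 14.5 in those of 100 to 200 kb. The density was 11.7 in gaps of 200 to 500 kb, 8.90 in those of 500 to 1000 kb and 6.56 in longer ones. Most long gaps were nevertheless entered, since 2 of the 129 gaps over 1 Mb held no such peak, and the rest held up to 32. Earlier peaks without a later counterpart behaved alike in the gaps of the 10 hpf list, with 6.13 per Mb in gaps up to 10 kb and 1.15 in those over 1 Mb. New and lost peaks thus both lay more densely where the other stage also had close peaks.

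**Figure D4:**
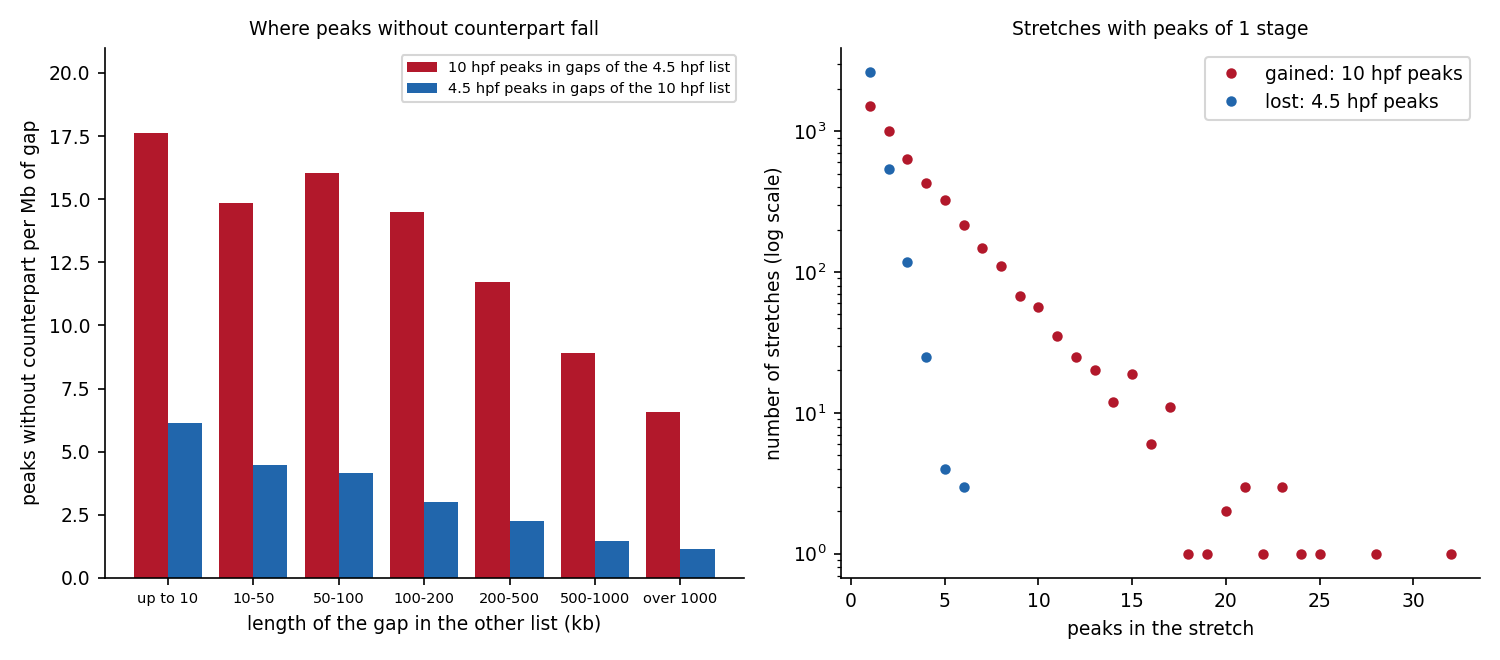
Left, peaks without overlap per Mb of gap in the other stage's list, by length of that gap in kb, for 10 hpf peaks in 4.5 hpf gaps and 4.5 hpf peaks in 10 hpf gaps. Right, number of gained and of lost stretches (log scale) by the number of peaks in them; the most is 32 peaks in a gained and 6 in a lost stretch.

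Runs of new peaks held more peaks on average than runs of lost peaks. A gained stretch is an unbroken run of 10 hpf peaks without overlap and with no 4.5 hpf peak between them, and a lost stretch is the same for 4.5 hpf peaks. The 15129 new peaks formed 4629 gained stretches, with a mean of 3.27 peaks and at most 32, and the 4198 lost peaks formed 3321 lost stretches, with a mean of 1.26 and at most 6. A longer list makes longer runs by itself. With the 10 hpf list at the length of the 4.5 hpf list, gained stretches of at least 10 peaks numbered 5 in place of 199, and lost stretches of at least 3 peaks 507 in place of 149. The 199 gained stretches of at least 10 peaks covered 137.7 Mb, with a median span of 626 kb, and held 17.1% of the new peaks. A single peak made up 32.4% of the gained and 79.3% of the lost stretches.

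The gained stretch with the most peaks lay on chromosome 20, 21823175 to 22968403, with 32 peaks of 10 hpf in 1145 kb, or 27.9 per Mb. It contained 9 CTCF peaks, with which 3 of its Rad21 peaks overlapped. The next lay on chromosome 18, 23276176 to 24407752, with 28 peaks, and on chromosome 9, 54040686 to 55885595, with 25 in 1845 kb. Chromosome 9 also had a stretch of 24, at 25407454 to 27094303, and chromosome 18 one of 23, at 10810824 to 12091511. Their members ranged from place 619 to 18064 in the list, so the stretches mixed peaks from high and low in it. Of the 2581 peaks in long gained stretches 16.6% (15.2 to 18.1) overlapped CTCF. Of all new peaks 17.5% (16.9 to 18.1) did, and of the whole 10 hpf list 18.8%.

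Lost stretches at the top of the order held 6 peaks each. They lay on chromosome 7, 58280382 to 58660141, chromosome 23, 4196887 to 4433429, and chromosome 25, 37346378 to 37380492. The last was the tightest, with 6 peaks in 34.1 kb and a median place of 922 among the 7144 of the 4.5 hpf list. On chromosome 7 the median place was 6400 and on chromosome 23 it was 6549.5, both low in that list. Stretches of 5 peaks followed on chromosome 11, 11896916 to 12982919, and chromosome 16, 50713406 to 51593391. None of the peaks in these 5 stretches overlapped a CTCF peak, although 2 to 7 CTCF peaks lay within each stretch. Over all 149 lost stretches of at least 3 peaks 3.48% (2.04 to 5.51) of the peaks overlapped CTCF, and of all lost peaks 2.76% (2.29 to 3.31) did.

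**Figure D5:**
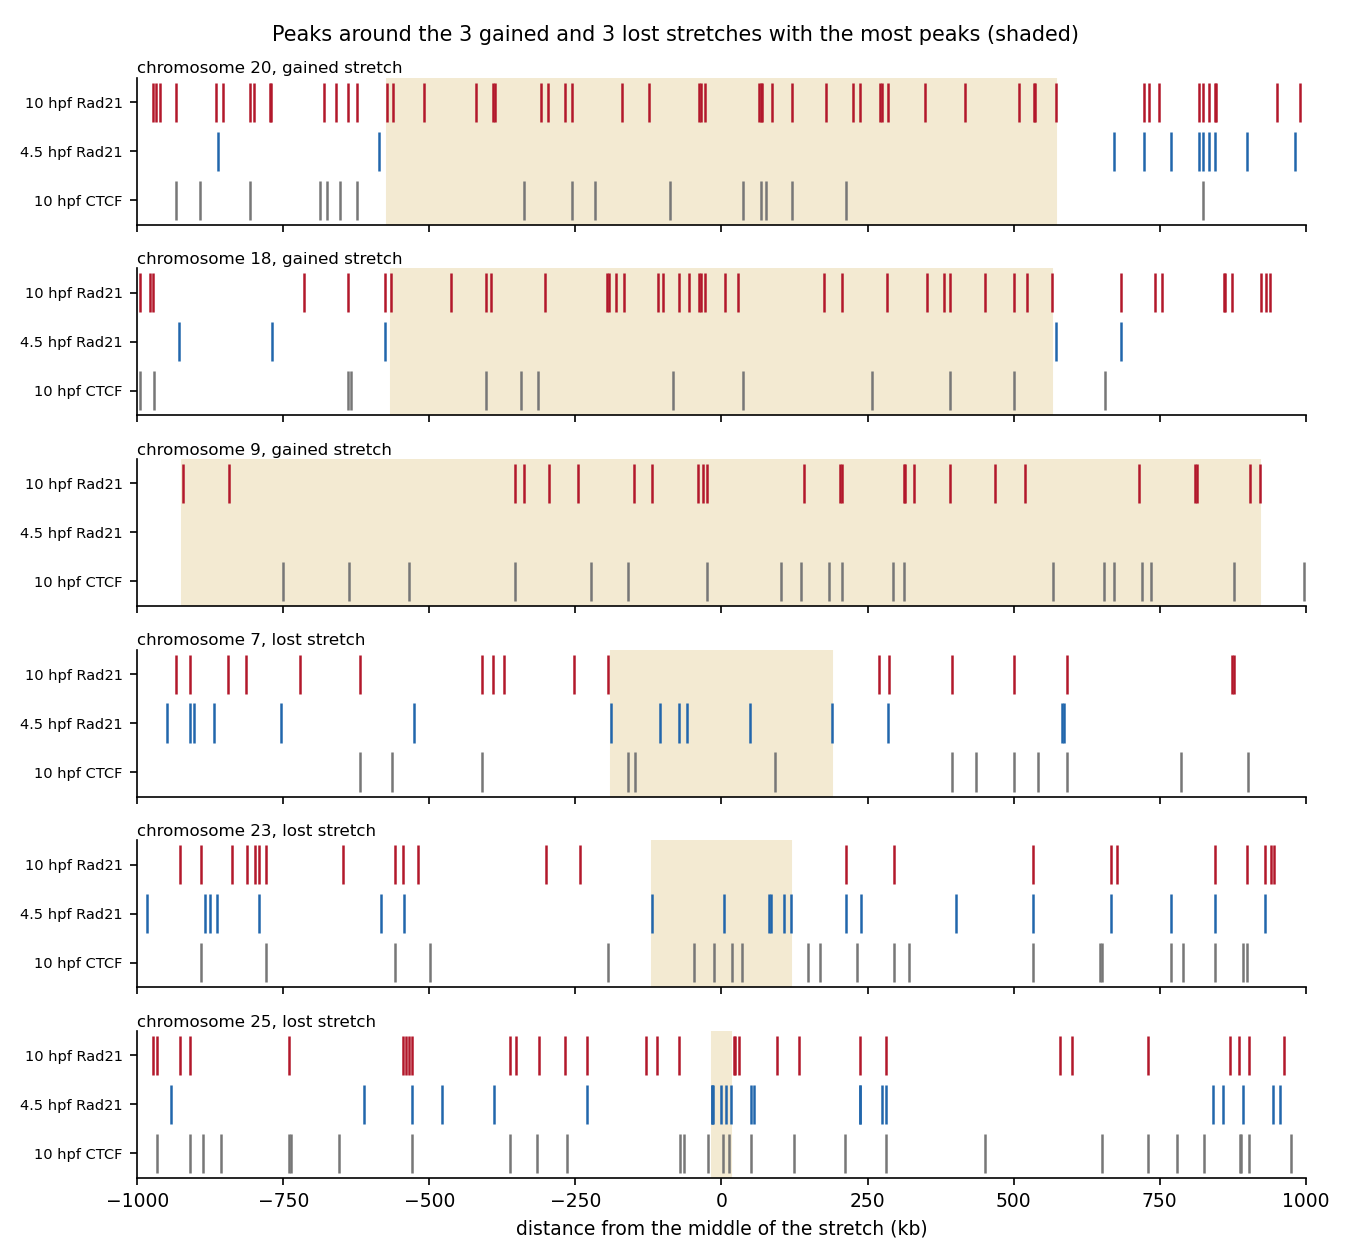
Positions of 10 hpf Rad21, 4.5 hpf Rad21 and 10 hpf CTCF peaks within 1000 kb on either side of the middle of the 3 gained and 3 lost stretches with the most peaks, by distance in kb. Shading marks the stretch: 32, 28 and 25 peaks of 10 hpf Rad21 with none at 4.5 hpf in the upper panels, and 6 peaks of 4.5 hpf Rad21 with none at 10 hpf in each of the lower panels.

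The maps show the edges of these stretches. On chromosome 20 the Rad21 peaks at 10 hpf continued on either side of the gained stretch. Peaks of 4.5 hpf were also present on both sides, most of them on the right. By definition, none lay within the gained stretch. Right of it, the window on chromosome 20 from 23 Mb held 23 peaks at 10 hpf and 18 at 4.5 hpf and was among the 5 densest at 4.5 hpf. A window empty at 4.5 hpf thus lay beside one of the fullest of that stage, while at 10 hpf they held 28 and 23 peaks.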

How the data were processed

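Chromatin immunoprecipitation with sequencing was used to map Rad21 in whole zebrafish embryos, with 2 libraries and 2 inputs per stage. Bowtie2 2.2.1, HOMER and the build Zv9 are named in the submitters' processing notes. Per the file headers, HOMER called peaks with a false discovery rate set to 0.001, 4-fold over input and over the 10000 bp around a peak, at most 1 tag per position for Rad21, and peaks at least 378 bp apart at 10 hpf and 336 bp at 4.5 hpf. Each list came from 1 tag directory, and whether it pools both libraries is not stated. The labels' protocols give 20000000 reads per sample. The score the authors deposited is 1 in every row and was not used. In its place stood the deposited order, which followed the rank in the peak identifiers (median Spearman rho over 25 chromosomes 0.97 at 10 hpf and 0.85 at 4.5 hpf).

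Positions were taken from the deposited lists. Distances are between centres, overlap means at least 1 bp, and a chromosome's length is the largest end in any list. Intervals of shares are exact (Clopper-Pearson, 95%), and those of medians come from order statistics. Analysis used Python 3.11.15, numpy 2.4.6, pandas 2.3.3 and scipy 1.17.1. The counting of overlaps, windows and runs was checked on planted peaks. Regions named were, by rule, the 5 windows with the highest and lowest fold and with the largest increase and decrease in number, the 5 stretches of each kind with the most peaks, the 5 farthest peaks, the first 5 peaks without another within 100 kb, and the chromosomes of highest and lowest ratio. The longest gaps, the longest chains and the densest windows were named in addition. Members and rules were chosen with earlier results of these data known. No sequence is shown, since no genome of build Zv9 was used here.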

Additional observations from a re-analysis of the deposited data

How the results depend on the processing

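Over 13 results, 59 alternatives were computed, of which 30 moved a value beyond its counting interval or a count by over 1.5 times. Leaving out chromosome 4 and shifting the windows moved none. With the 10 hpf list cut to the length of the 4.5 hpf list, gained windows numbered 72 and lost windows 49, with fewer windows of enough peaks. Windows of 100 kb with peaks at 10 hpf only numbered 1959 and at 4.5 hpf only 2079. Distances became 21.2 kb from 10 to 4.5 hpf and 21.4 kb from 4.5 to 10 hpf, overlap 31.7% of either list, the 10 hpf gap 90.9 kb, long gained stretches 5 and long lost stretches 507. This setting leaves fewer 10 hpf peaks by construction. With the first 50% of each list, gained windows numbered 61 and lost windows 47, with fewer windows of enough peaks, distances were 64.6 kb from 10 to 4.5 hpf and 0.068 kb from 4.5 to 10 hpf, and overlap was 22.1% of the 10 hpf and 55.8% of the 4.5 hpf list. Gaps were 73.9 kb at 10 hpf and 198.5 kb at 4.5 hpf, and long stretches 96 gained and 49 lost. At 3-fold, 36 windows were gained and 11 lost, fewer by construction. With 4.5 hpf counts under 3 raised to 3, an alternative chosen after seeing the data, 54 windows were gained. Overlap of at least 50% of the narrower peak gave 15.3% at 10 hpf and 38.7% at 4.5 hpf, and centres within 1 kb 17.5% at 10 hpf and 43.9% at 4.5 hpf. Merging peaks within 1 kb gave a 10 hpf gap of 41.5 kb. The ratio in the outer length deciles was 0.76 times that in the middle ones, and 0.68 times at equal length, 0.67 times with the first 50% and 0.76 times without chromosome 4, alternatives chosen after seeing the data.

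No paired analysis was possible because each stage has a single list with no value per library, and for the same reason leaving out a library was not possible. Peaks whose tags fell just under the caller's threshold are not listed, so a peak absent from a list is not shown to be unbound at that stage.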
